A study of Mus musculus with 4 samples.

Results

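Open chromatin was described at the loci of 9 genes through which regulatory T (Treg) cells suppress other cells: Il10, Ebi3, Tgfb1, Lrrc32, Itgb8, Gzmb, Nt5e, Entpd1 and Fgl2. Every peak of the 4 deposited ATAC-seq peak lists that overlapped the body of one of these genes, or the 20 kb on either side of it, was taken, and peaks of different libraries that shared at least 1 bp were merged. This gave 92 regions, out of 272233 merged regions in the genome. Of the 92 regions, 43 were called in all 4 libraries, 12 in 3, 12 in 2 and 25 in a single library. Genes were placed by the GENCODE annotation of GRCm38, on which coordinates are those of mm10, the build of the peak lists. Regions are named by the gene and by the distance of their summit from its transcription start in kb, with a minus sign for upstream.

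Libraries were prepared from Foxp3+ Treg cells of lymph nodes (LNs), 50000 sorted cells in each, from WT and Il2ra mut/mut mice, with 2 libraries per genotype. Both groups were unstimulated female C57BL/6 mice of 6 to 8 weeks that carried the Foxp3 Rfp/Rfp reporter, in which a red fluorescent protein marks Foxp3-expressing cells, and the cells were enriched for CD4+ T cells by negative selection and sorted as RFP+. Il2ra mut/mut mice carry a spontaneous germline point mutation in the alpha chain of the interleukin 2 (IL-2) receptor, CD25, which lowers its display at the cell surface, so that every cell type of these mice carries it and their Treg cells receive reduced IL-2 signals. The comparison asks whether chromatin at the suppressive genes of LN Treg cells differs when IL-2 signals are reduced.

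Treg cells restrain immune responses through secreted cytokines, through surface enzymes and activators, and through cytotoxic granules. IL-10 and the EBI3-containing cytokine IL-35 act on other leukocytes, TGF-beta 1 is held latent at the Treg surface by GARP (Lrrc32) and released by the integrin chain beta 8 (Itgb8), CD39 (Entpd1) and CD73 (Nt5e) convert extracellular ATP to adenosine, granzyme B (Gzmb) kills target cells, and FGL2 acts on antigen-presenting cells. In ATAC-seq a transposase cuts accessible DNA, and promoters and enhancers in use gather reads. It measures how open a regulatory element is, not how much of the gene is transcribed.

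The 4 peak lists held between 112569 and 142732 peaks and no library totals, so the sequencing depth is unknown. Given 1 background level per library, every fold enrichment worked back to whole reads at the peak summit (100% of peaks within 0.01 reads), and these are the reads quoted here. The background levels were 0.974 and 0.979 reads in WT replicates 1 and 2, and 1.23 and 1.06 in those of Il2ra mut/mut. The reads quoted are not scaled for these levels. The median region called in all 4 libraries held 14 and 20 reads in WT replicates 1 and 2, against 18 and 17 in those of Il2ra mut/mut, so WT replicate 1 had the fewest reads at shared regions. The 92 regions were called 61 and 68 times in the WT and 62 and 66 times in the mutant libraries. Promoter peaks were present in all 4 libraries for 8 of 8 Treg and T cell markers. No library had a promoter peak at any of 4 B cell genes, at Ncr1 or Klrb1c of NK cells, or at Cd8a, while Cd8b1 and 2 of 5 stromal and endothelial genes (Col1a1 and Pecam1) had one in all 4. Whether cells of other types took part in the results was not tested beyond these promoters, and in a bulk library fewer open cells and less openness per cell cannot be told apart.

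The sequences of the regions on which the results turn are given first, as 300 bases of the plus strand of GRCm38.p6 centred on the summit of the strongest library. Shown are 4 Il10 regions, in which both mutant libraries stood above both WT libraries, the region downstream of Fgl2 that was a reproducible peak in the mutant only, though also called weakly in WT replicate 1, and the region beyond Nt5e with the highest percentile in the mutant libraries. Capitals mark matches, on either strand, to 7 motif words: TTCNNNGAA (STAT), TGANTCA (AP-1), TGTTTAC (forkhead), TGTGGTT (RUNX), CCGGAAGT (ETS), TGACGTCA (CREB) and CCACNCCC (KLF). No matches overlapped one another in these 6 windows.
Il10 -16.4 kb, chr1:131003320-131003619: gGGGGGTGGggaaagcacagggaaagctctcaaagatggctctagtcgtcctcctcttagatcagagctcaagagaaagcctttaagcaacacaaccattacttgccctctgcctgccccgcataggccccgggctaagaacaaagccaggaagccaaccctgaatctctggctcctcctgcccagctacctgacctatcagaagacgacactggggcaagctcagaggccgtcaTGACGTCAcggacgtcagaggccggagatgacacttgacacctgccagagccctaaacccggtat
Il10 -9.2 kb, chr1:131010519-131010818: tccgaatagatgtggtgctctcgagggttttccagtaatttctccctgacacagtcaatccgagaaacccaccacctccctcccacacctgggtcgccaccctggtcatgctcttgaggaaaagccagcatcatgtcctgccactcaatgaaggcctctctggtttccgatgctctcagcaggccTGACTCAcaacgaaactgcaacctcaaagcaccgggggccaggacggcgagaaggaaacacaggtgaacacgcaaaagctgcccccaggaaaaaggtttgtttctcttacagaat
Il10 +3.0 kb, chr1:131022647-131022946: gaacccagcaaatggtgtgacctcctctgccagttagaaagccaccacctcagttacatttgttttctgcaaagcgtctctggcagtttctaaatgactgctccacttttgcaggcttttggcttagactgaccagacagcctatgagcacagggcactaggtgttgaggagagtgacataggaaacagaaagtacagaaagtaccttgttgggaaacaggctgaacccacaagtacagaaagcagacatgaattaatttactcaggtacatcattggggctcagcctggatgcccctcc
Il10 +6.2 kb, chr1:131025869-131026168: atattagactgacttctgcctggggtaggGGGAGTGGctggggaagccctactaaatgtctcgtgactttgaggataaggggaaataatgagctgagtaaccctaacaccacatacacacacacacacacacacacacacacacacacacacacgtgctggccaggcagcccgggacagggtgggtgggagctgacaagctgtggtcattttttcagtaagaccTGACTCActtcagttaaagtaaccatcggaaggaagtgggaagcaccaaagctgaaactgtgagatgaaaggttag
Fgl2 +12.5 kb, chr5:21385020-21385319: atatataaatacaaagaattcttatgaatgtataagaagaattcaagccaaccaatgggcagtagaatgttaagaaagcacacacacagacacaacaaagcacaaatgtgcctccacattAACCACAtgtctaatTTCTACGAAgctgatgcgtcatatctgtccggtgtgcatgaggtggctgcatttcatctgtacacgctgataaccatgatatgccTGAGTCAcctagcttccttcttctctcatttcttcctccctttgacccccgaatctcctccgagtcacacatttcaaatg
Nt5e +53.1 kb, chr9:88380134-88380433: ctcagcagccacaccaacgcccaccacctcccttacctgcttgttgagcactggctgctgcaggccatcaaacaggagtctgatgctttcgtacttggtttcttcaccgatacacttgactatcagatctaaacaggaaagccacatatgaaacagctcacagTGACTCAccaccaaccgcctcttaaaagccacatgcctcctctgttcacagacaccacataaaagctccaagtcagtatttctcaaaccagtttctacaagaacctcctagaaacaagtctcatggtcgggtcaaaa

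The AP-1 word occurred in 3 of the 6 Il10 windows called in at least 2 libraries, at -9.2, +1.7 and +6.2 kb, and the KLF word in 3, at -16.4, +1.7 and +6.2 kb. A CREB word lay in the -16.4 kb window, and the +3.0 kb window held none of the 7 words. The STAT word, the core of the sites bound by STAT factors such as STAT5 downstream of the IL-2 receptor, was not found in the 6 Il10 windows, which says only that these letters are not in these 300 bases. Over all 67 regions of the 9 loci called in at least 2 libraries, the AP-1 word was found in 19 (28.4%), beside 10.4% of 105029 windows of the same length around the summits of such regions on the assembled chromosomes. STAT words were found in 9 (13.4%, genome 8.93%), KLF words in 10 (14.9%, genome 11.1%), RUNX words in 5 (7.46%, genome 8.49%), forkhead words in 3 (4.48%, genome 3.98%), CREB words in 3 (4.48%, genome 0.771%) and ETS words in 2 (2.99%, genome 1.5%). A match is a description of the letters and not a measured binding site.

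Across the 9 loci, no region differed between the genotypes past the threshold. The 43 regions with a peak in all 4 libraries were read from one limma fit over all 38426 such regions of the genome, on quantile-normalized log2 fold enrichment with an adjusted p under 0.05 as the threshold. Of the 43, 0 passed, as did 0 of the 38426 (0.0%), with 0.582 as the lowest adjusted p. At an unadjusted p under 0.05, 3 of the 43 had a higher value in Il2ra mut/mut (genome 4.18%) and 1 a lower value (genome 4.37%). Those 3 were Il10 +3.0 kb, Il10 -9.2 kb and Nt5e +53.1 kb, and the 1 was Lrrc32 +24.2 kb. The log2 differences, Il2ra mut/mut minus WT, ran from -0.58 to 0.85 with a median of -0.01, and 90% of the regions of the genome lay between -0.53 and 0.52 around a median of 0.00. With 2 libraries per genotype, an exact permutation test of a single region cannot give a two-sided p below 0.33.

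**Figure D1:**
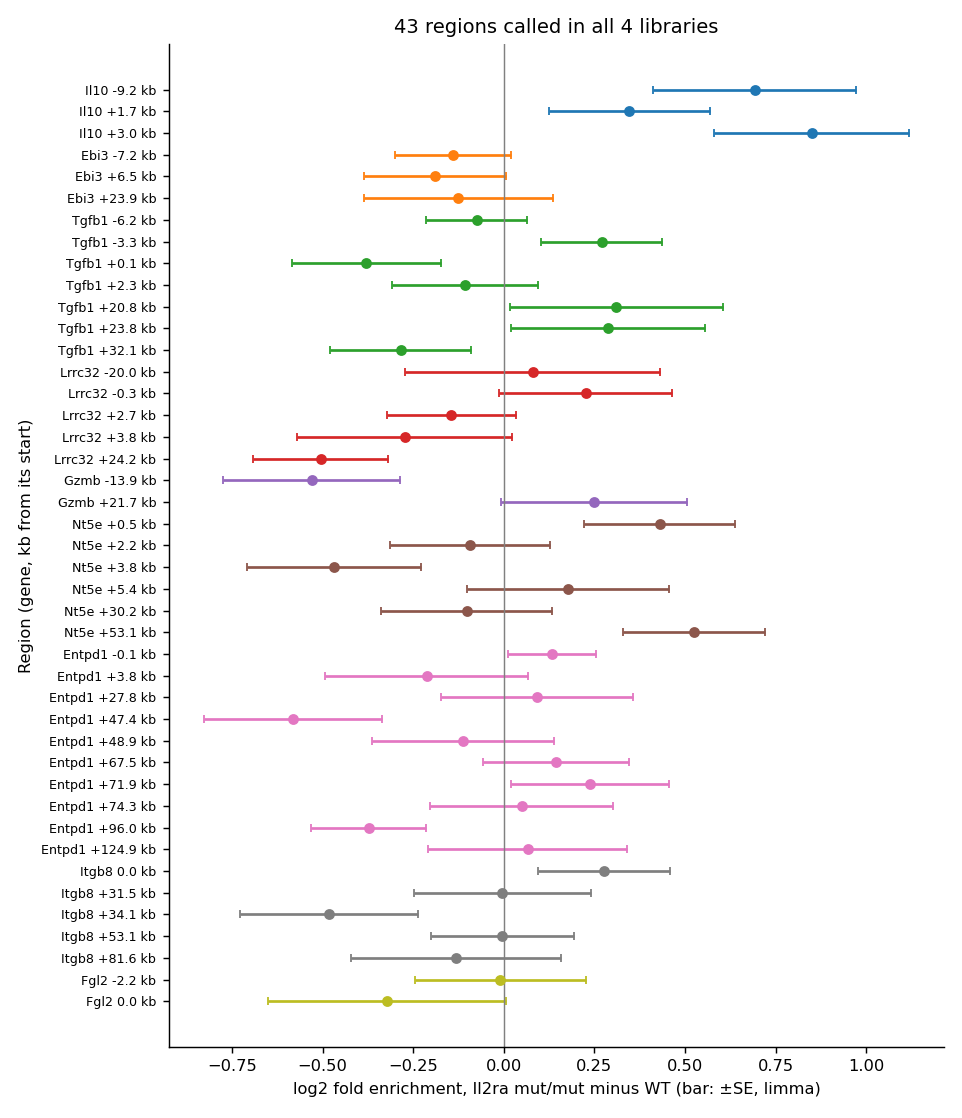
The log2 difference in fold enrichment, Il2ra mut/mut minus WT (horizontal axis), with its standard error from limma (bars) for the 43 regions called in all 4 libraries, coloured by gene. All 3 Il10 regions lie to the right of 0, at 0.69, 0.35 and 0.85, while the other loci with more than 2 regions, apart from Ebi3, have values on both sides.

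Presence of a peak also separated the genotypes at few regions. Of the 67 regions called in at least 2 libraries, 2 were called in both WT and in neither mutant library (2.99%, genome 6.97%), and 1 in both mutant and in neither WT library (1.49%, genome 9.19%). The WT-only regions were Tgfb1 -4.9 kb, with 7 and 11 reads in the WT libraries, and Nt5e +39.3 kb, with 9 reads in each. Tgfb1 -4.9 kb lay at the promoter of the neighbouring gene B9d2, and its WT summits were 366 bp apart. The mutant-only region was Lrrc32 -5.8 kb, with 8 and 7 reads. These 3 regions thus held 7 to 11 reads, beside a median of 8 or 10 over all peaks of a library. With any library left out, 1 library stands for its genotype, and the counts were then 4 to 11 and 4 to 8. No genome share is given beside these counts.

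A further count, chosen after the values were seen, took the regions in which both libraries of one genotype stood above both of the other. Each region was ranked within its library by the percentile of its -log10 p, with 0 where no peak was called. Both mutant libraries stood above both WT libraries at 19 of the 67 regions (28.4%, genome 22.8%), and both WT above both mutant at 11 (16.4%, genome 15.1%). The percentile depends on the length of a list, and by rank from the top of the list the counts were 16 and 13 (genome 19.6% and 18.7%). By fold enrichment as deposited they were 11 and 15 (genome 17.1% and 17.3%), and with only peaks of a -log10 q of at least 3 they were 24 and 5 of 63 (genome 35.2% and 9.18%). Regions of 1 locus share their libraries and are not replicates.

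Reproducible open chromatin regions (OCRs) were those whose peaks in both libraries of a genotype had an irreproducible discovery rate (IDR) of at most 0.05. At the 9 loci there were 42 OCRs, of which 29 were common, 8 were seen in WT only (19.0%, genome 14.2%) and 5 in Il2ra mut/mut only (11.9%, genome 13.7%). Of the 5 mutant-only OCRs, 4 lay at Il10 and 1 at Fgl2. The 8 WT-only OCRs were spread over Ebi3, Lrrc32, Nt5e, Entpd1, Itgb8 and Fgl2, with 2 each at Lrrc32 and Nt5e. All 13 OCRs of 1 genotype overlapped a peak called in the other genotype, in 1 or both of its libraries.

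**Figure D2:**
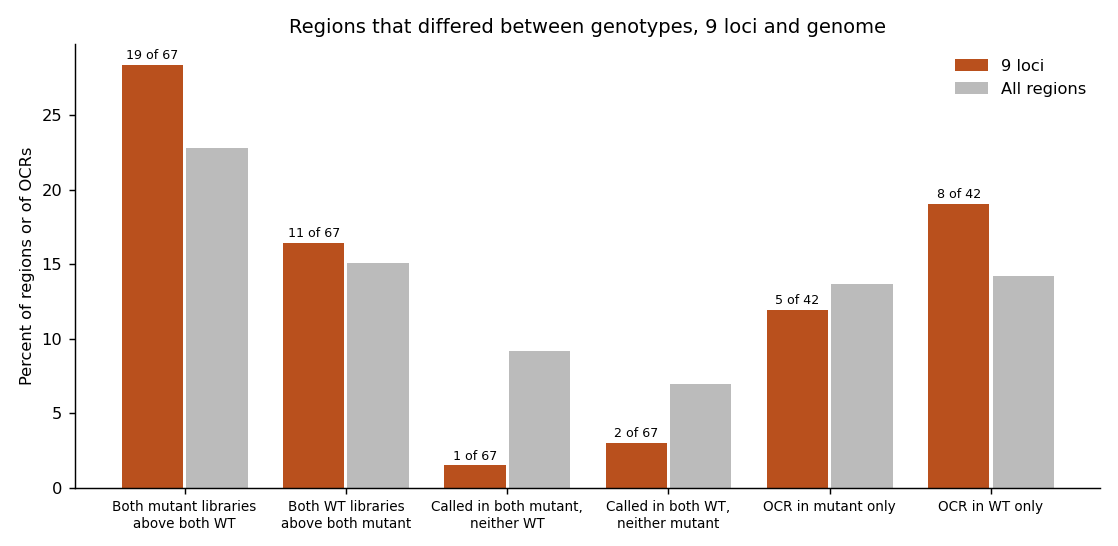
Percent of regions, or of OCRs in the last 2 pairs, that differed between genotypes at the 9 loci (coloured bars, with counts) and over the genome (grey bars). The 9 loci are nearest to the genome where both WT libraries stood above both mutant libraries, at 16.4% and 15.1%, and farthest below it where a region was called in both mutant and neither WT library, at 1.49% and 9.19%.

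Il10, which encodes the anti-inflammatory cytokine IL-10, lies at chr1:131019845-131024974 on the plus strand. Of the 9 loci it had the most regions with the mutant libraries above WT: at 6 of its 6 regions called in at least 2 libraries, both mutant libraries stood above both WT libraries. At +3.0 kb (chr1:131022532-131023075), in the fourth intron and reaching into an exon, the summit held 9 and 15 reads in WT replicates 1 and 2, against 25 and 19 in those of Il2ra mut/mut. The counting intervals (exact Poisson, 95%) were 4.12 to 17.1, 8.40 to 24.7, 16.2 to 36.9 and 11.4 to 29.7, so all 4 intervals overlapped, by the least between the first replicate of each genotype. Within its library the region stood at percentiles 62.4 and 79.9 in WT and 88.3 and 87.7 in the mutant. The log2 difference in fold enrichment was 0.85 ± 0.27 (SE), the largest of the 43 regions, with an adjusted p of 0.582 (limma).

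Upstream of Il10, the region at -9.2 kb (chr1:131010445-131011015) held 12 and 22 reads in the WT and 23 and 32 in the mutant libraries. Its log2 difference was 0.69 ± 0.28 (SE, limma adjusted p 0.582). WT replicate 2 and Il2ra mut/mut replicate 1 differed by 1 read there, and by fold enrichment as deposited (11.6 and 10.8) their order was the reverse. This was the only Il10 OCR common to both genotypes, at an IDR of 0.00528 (WT) and 3.57e-05 (mutant). At +1.7 kb, in the third intron and reaching into an exon (chr1:131021430-131021884), there were 8 and 11 reads in WT and 13 and 12 in the mutant, with a log2 difference of 0.35 ± 0.22 (SE, limma adjusted p 0.676).

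The other 3 Il10 regions were called in WT replicate 2 and in both mutant libraries but not in WT replicate 1. At -20.1 kb the reads were 10 in WT replicate 2 and 17 and 13 in the mutant libraries. At -16.4 kb they were 15, 22 and 21, and at +6.2 kb, beyond the 3' end of the gene, 6, 13 and 10. In each of these the WT replicate with a peak was the lowest of the libraries called, and its percentile at +6.2 kb was 7.55, beside 76.4 and 71.4 in the mutant libraries. The regions at -20.1, -16.4, +1.7 and +3.0 kb were mutant-only OCRs, with a mutant IDR between 9.71e-05 at -16.4 kb and 0.0228 at +1.7 kb. Summits of the libraries lay within 61 to 190 bp of each other in the 6 regions.

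WT replicate 1 had the lowest reads at shared regions and called 3 regions at Il10, against 9, 7 and 6 in WT replicate 2 and in the mutant libraries. By rank from the top of the list the mutant libraries also stood above both WT libraries at 6 of 6 regions, and by fold enrichment as deposited at 5 of 6, the exception being -9.2 kb. How far the lower reads of WT replicate 1 set these differences was not tested beyond leaving it out. The log2 difference at +3.0 kb was 0.67 without WT replicate 1 and 1.01 without the second mutant replicate. At -9.2 kb it was 0.42 without the second mutant replicate and 0.96 without the first. Of 4612 protein-coding genes with 6 or more regions called in at least 2 libraries, 7 (0.152%), Il10 among them, had both mutant libraries above both WT libraries at every one, and 4 by rank from the top. This count was chosen after the values were seen, with the number of Il10 regions as its cut. Regions of a locus share their libraries, so the share is not a probability and gives no independent support for Il10. The 4 remaining Il10 regions were each called in 1 library, 3 of them in WT replicate 2 and 1 in Il2ra mut/mut replicate 1, so the direction was not shared by every peak of the locus.

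**Figure D3:**
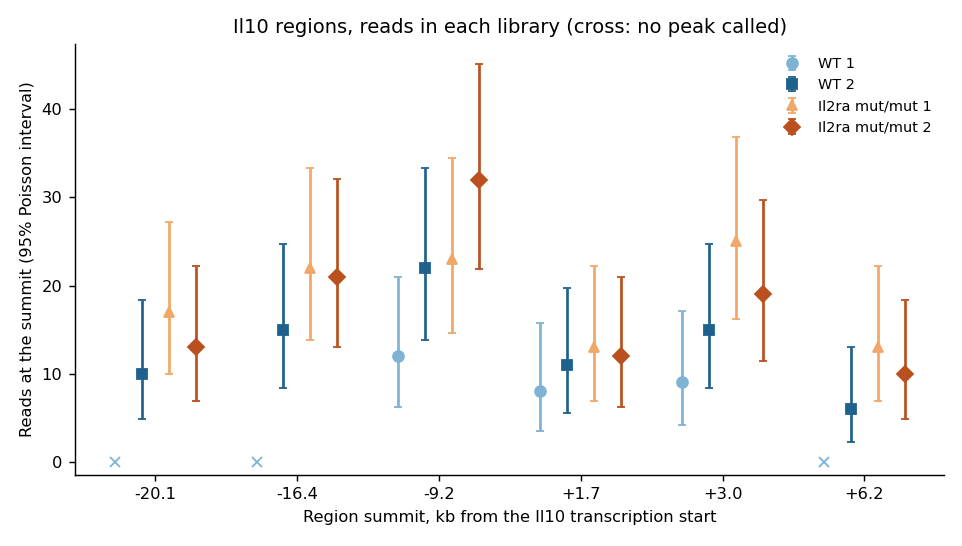
Reads at the summit (vertical axis) of the 6 Il10 regions called in at least 2 libraries, by distance from the transcription start (horizontal axis, not to scale), with exact 95% Poisson intervals as bars and a cross where no peak was called. The mutant symbols lie above the WT symbols in each region, by 1 read between WT replicate 2 and the lower mutant library at +1.7 kb (11 and 12) and by 4 at +3.0 kb (15 and 19). Reads are not scaled for the background of a library. By fold enrichment as deposited, +1.7 kb had 6.06 in WT replicate 2 and 6.28 and 6.32 in the mutant libraries, and the order was not kept at -9.2 kb.

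No library had a peak within 1 kb of the Il10 start, so the open regions of the locus lay inside or away from the gene. Of the 21938 protein-coding genes, 35.8% had no promoter region in any library.

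Ebi3, the beta chain shared by IL-35 and IL-27, is at chr17:55952640-55957022. Its own promoter was called in 1 library alone, Il2ra mut/mut replicate 1, with 9 reads. The strongest regions of its window belonged to neighbours: -7.2 kb lay at the promoter of Zfp119b (41, 53, 47 and 42 reads in WT replicates 1 and 2 and mutant replicates 1 and 2) and +6.5 kb at that of Yju2 (46, 50, 43 and 45 reads). Their log2 differences were -0.14 ± 0.16 and -0.19 ± 0.20 (SE, limma adjusted p 0.813 and 0.785), and the libraries of the genotypes overlapped. At +23.9 kb, within Shd, a WT-only OCR held 11 and 18 reads in WT and 12 and 14 in the mutant, at an IDR of 0.0226 (WT) and 0.0881 (mutant).

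Tgfb1, which encodes TGF-beta 1, is at chr7:25687002-25705077. Its promoter region at +0.1 kb held 26 and 33 reads in WT and 23 in each mutant library, so that both WT libraries stood above both mutant libraries. The log2 difference was -0.38 ± 0.21 (SE, limma adjusted p 0.628). A second region near the start, at +2.3 kb in the first intron, held 31, 38, 31 and 35 reads and did not separate the genotypes (-0.11 ± 0.20). The strongest region of the window was the promoter of the neighbouring gene B9d2 at -6.2 kb, with 67, 110, 97 and 80 reads. Within the body of B9d2, the region at -3.3 kb held 27 and 41 reads in WT and 43 and 41 in the mutant (0.27 ± 0.17, adjusted p 0.668), and its percentiles were higher in both mutant libraries. The window held 6 OCRs, all of them common.

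Lrrc32 encodes GARP, which docks latent TGF-beta on the Treg surface, and lies at chr7:98489283-98502181. Its strongest region was in the first intron at +2.7 kb, with 39 and 50 reads in WT and 47 and 37 in the mutant (-0.14 ± 0.18). The promoter region at -0.3 kb held 16, 30, 25 and 28 reads (0.23 ± 0.24), with WT replicate 1 lowest and WT replicate 2 highest. It was 2726 bp wide after merging, and its library summits lay up to 988 bp apart. At +24.2 kb, downstream of the gene (chr7:98513196-98513686), there were 33 and 45 reads in WT and 31 and 25 in the mutant, a log2 difference of -0.51 ± 0.19 (SE, limma adjusted p 0.582). Both WT libraries stood above both mutant libraries in that region. WT-only OCRs were found at -4.3 kb (11 and 19 reads in WT, none and 14 in the mutant) and at +3.8 kb, near the start of another transcript (13, 19, 11 and 16 reads). Summits of the libraries lay up to 490 bp apart at +3.8 kb.

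Itgb8, the integrin chain through which Treg cells activate latent TGF-beta, lies on the minus strand at chr12:119158022-119238802. Its promoter held 30 and 37 reads in WT and 42 and 43 in the mutant libraries. Both mutant libraries stood above both WT libraries, with a log2 difference of 0.28 ± 0.18 (SE, limma adjusted p 0.682). With a library left out the difference ran from 0.15 to 0.40. In its second intron, the region at +34.1 kb held 19, 27, 15 and 18 reads (-0.48 ± 0.25, adjusted p 0.612). A WT-only OCR at +81.6 kb, beyond the 3' end, held 13 and 14 reads in WT and 11 and 15 in the mutant. Of the 13 regions at Itgb8, 6 were called in a single library, the most of any of the 9 loci.

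Gzmb, the serine protease of cytotoxic granules, is at chr14:56258838-56262260 on the minus strand. Its promoter was barely called: a peak of 7 reads in WT replicate 1 and one of 8 in Il2ra mut/mut replicate 2, with none in the other 2 libraries. The strongest region, at -13.9 kb (chr14:56275656-56276579), held 17 and 21 reads in WT and 14 and 12 in the mutant, and both WT libraries stood above both mutant libraries. Its log2 difference was -0.53 ± 0.24 (SE, limma adjusted p 0.603). This region lies over Gm48200, annotated as a processed pseudogene, so reads from near-identical copies elsewhere in the genome could be placed there. It was the single OCR of the window and was common to both genotypes. A region at +21.7 kb held 7, 11, 10 and 12 reads (0.25 ± 0.26).

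Nt5e (chr9:88327197-88372092) encodes CD73, the enzyme that makes adenosine from AMP. The region that begins at its start, at +0.5 kb, held 23 and 42 reads in WT and 51 and 38 in the mutant. By percentile both mutant libraries stood above both WT libraries (94.6 and 93.8 against 89.1 and 92.4), although WT replicate 2 held more reads than Il2ra mut/mut replicate 2, and the log2 difference was 0.43 ± 0.21 (SE, limma adjusted p 0.611). In the first intron, +2.2 kb held 36, 71, 60 and 42 reads and did not separate the genotypes (-0.09 ± 0.22). The weaker +3.8 kb held 12 and 17 reads in WT and 10 and 11 in the mutant (-0.47 ± 0.24, adjusted p 0.615) and was a WT-only OCR. So within 4 kb of the same start, neighbouring regions had differences of either sign.

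At +53.1 kb, beyond the 3' end of Nt5e and within the body of Snx14 (chr9:88379897-88380849), there were 29 and 56 reads in WT and 69 and 56 in the mutant. The percentiles were 91.5 and 94.8 in WT and 96.6 and 96.3 in the mutant, and the log2 difference was 0.52 ± 0.20 (SE, limma adjusted p 0.582). WT replicate 2 and Il2ra mut/mut replicate 2 held the same number of reads, and the difference was 0.32 without WT replicate 1. The third intron held a WT-only OCR at +30.2 kb, with 11, 13, 11 and 12 reads.

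Entpd1 (chr19:40612366-40741602) encodes CD39, which hydrolyses ATP and ADP on the Treg surface, and had the strongest promoter of the 9 genes. That promoter, shared with the divergent gene Tctn3, held 79 and 101 reads in WT and 112 and 100 in the mutant, at percentiles of 98.2 to 98.7. The log2 difference was 0.13 ± 0.12 (SE, limma adjusted p 0.760). The first intron of its longest transcript held most of the other regions. At +47.4 kb, near the start of another transcript, there were 10 and 18 reads in WT and 9 in each mutant library, with a log2 difference of -0.58 ± 0.25 (SE, limma adjusted p 0.584), the lowest of the 43 regions, and a WT-only OCR. The library summits of this merged region, 741 bp wide, lay up to 484 bp apart. Whether the libraries were compared at the same peak there was not tested.

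Farther along the first intron of Entpd1, +96.0 kb held 47 and 61 reads in WT and 43 and 44 in the mutant (-0.37 ± 0.16, adjusted p 0.584), with both WT libraries above both mutant libraries. At +71.9 kb the order was the reverse, with 21 and 26 reads in WT and 27 and 30 in the mutant (0.24 ± 0.22, adjusted p 0.762). Of the 14 Entpd1 regions called in at least 2 libraries, 3 had both mutant and 3 both WT libraries above the others. Entpd1 held 8 OCRs, 7 of them common.

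Fgl2, a secreted fibrinogen-like protein, is at chr5:21372642-21378374, inside the body of Ccdc146. Its promoter held 18 and 16 reads in WT and 18 and 11 in the mutant (-0.32 ± 0.33, adjusted p 0.782). It was a WT-only OCR (IDR 0.00718, against 0.0708 in the mutant), and the libraries overlapped. The region at -2.2 kb held 19, 25, 26 and 19 reads. Its percentiles were higher in both mutant libraries, yet its log2 difference was -0.01 ± 0.24, and by rank from the top of the list Fgl2 had 1 region with the mutant libraries above WT in place of 2. At +12.5 kb (chr5:21384609-21385386 as an OCR) there were 6 reads in WT replicate 1, no peak in WT replicate 2 and 16 and 11 reads in the mutant libraries. That mutant-only OCR had an IDR of 0.0471, just inside the threshold of 0.05.

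**Figure D4:**
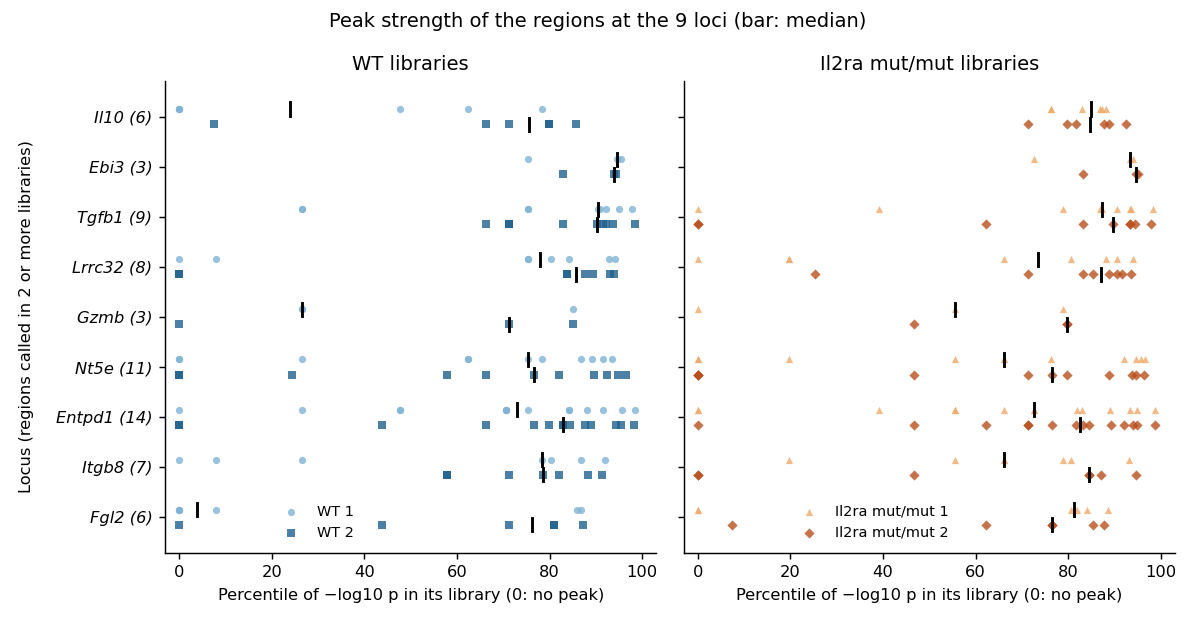
Percentile of the -log10 p within its own library (horizontal axis, 0 where no peak was called) for the 67 regions called in at least 2 libraries, by locus (rows), with WT libraries on the left and Il2ra mut/mut libraries on the right. Points are regions and black bars are medians over the regions of a locus, and the 6 Il10 regions all lie at 71.4 or above in the mutant libraries, while 3 of them are at 0 in WT replicate 1.

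Promoters of the 9 genes spanned the range of the genome. A region within 1 kb of a transcription start was called in all 4 libraries for 6 of the 9 genes, beside 51.7% of protein-coding genes. By the mean percentile of the strongest such region, Entpd1 came first at 98.5, followed by Itgb8 (92.8), Nt5e (92.5), Tgfb1 (91.9), Lrrc32 (88.3) and Fgl2 (81.9). The Entpd1 region was the one shared with Tctn3, so its rank cannot be assigned to Entpd1 alone. Near the start of another Entpd1 transcript, the +47.4 kb region had a mean percentile of 63.8. The Tgfb1 value is that of +2.3 kb, beside 89.4 at +0.1 kb. The range of Entpd1 over the libraries lay above the ranges of the others, while the ranges of neighbours among the next 5 overlapped. Compared within each library, Tgfb1 also stood above Lrrc32 in every one. Gzmb (18.3) and Ebi3 (9.77) were called in 2 libraries and 1 library, and Il10 in none. Of protein-coding genes, each taken by its strongest such region, 91.5% had a weaker promoter than Entpd1 and 53.9% a weaker one than Fgl2.

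Other genes of the same pathways were examined as a list of 41, among them receptors, activating enzymes and other inhibitory molecules. Of their 162 regions called in all 4 libraries, 0 passed the limma test. Both mutant libraries stood above both WT libraries at 61 of 256 regions called in at least 2 libraries (23.8%), and both WT above both mutant at 40 (15.6%), close to the genome shares of 22.8% and 15.1%. Of their 154 OCRs, 108 were common, 22 were found in the mutant only and 24 in WT only, where the genome shares were 13.7% and 14.2%. In the IL-10 and IL-35 group, which holds the receptor chains Il10ra and Il10rb and the partner chains Il12a and Il27, the counts were 6 and 9 of 44. For the TGF-beta group of ligands, receptors, integrins and activators they were 14 and 8 of 58, for the adenosine group 10 and 4 of 34, for the cytotoxic granule group 4 and 6 of 24, and for the FGL2 receptors 3 and 1 of 5. Fcgr2b had 0 regions, so the FGL2 receptor counts came from Fcgr3 alone. The largest group, of other suppressive molecules such as Ctla4 and Lag3, had 24 and 12 of 91, and of its 59 OCRs 10 were found in the mutant only and 15 in WT only.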

How the data were processed

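ATAC-seq peak lists of 4 LN Treg cell libraries were used. The authors trimmed reads (Trim Galore 0.3.7 in the submitters' processing notes), mapped them to mm10 with BWA mem (0.7.13), removed duplicated and mitochondrial reads, kept concordant pairs and, after shifting reads, called narrow peaks in each library with MACS2 (2.1.0). SAMtools (0.1.19) and Picard (1.92) are also named. The deposited lists give, per peak, the fold enrichment at the summit (a ratio to the background), the −log10 p-value, the −log10 q-value and a score, all the authors' values. The score was not used further. Reads at the summit were recovered as the fold enrichment times (background + 1) minus 1, and intervals cover counting error only.

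Peaks were merged at 1 bp of overlap, and the strongest peak of a library stood for the region. Log2 fold enrichment was quantile normalized and fitted with limma (3.58.1, R 4.3.3; eBayes with trend, two-sided, Benjamini-Hochberg over all regions). Quantile normalization left tied values with 0 variance, which limma offset. Reproducible OCRs used an IDR written in Python (3.11.15, numpy 2.4.6, scipy 1.17.1) on −log10 p, with a fixed seed to break ties. The IDR, merging and limma steps were tested on simulated data. Chromosome sequences came from GRCm38.p6, on which 0 peaks ran past a chromosome end, and 8 of 8 promoters of the genes in RefSeq were read back unchanged. Coordinates are 1-based.

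The genes and lists were chosen with earlier results of these data known. The regions named at each gene were those within 1 kb of a start, the 2 with the highest mean percentile, those called or reproducible in one genotype only (at most 4 of these in full), and any past the limma threshold. Regions outside this rule, such as those with an unadjusted p under 0.05 or with genotypes apart by percentile, and the genes counted beside Il10, were named after their values were seen. The numbers of the replicates did not pair the libraries. The mice behind each library are described as biological replicates, 2 per genotype, and p-values measure the spread between these libraries. Alternatives were another scaling or measure, a stricter −log10 q of 3, merging at 50% overlap, a 10 kb flank, equal numbers of peaks, other IDR settings and leaving out each library. Thymic libraries were not analysed here.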

Additional observations from a re-analysis of the deposited data

How the results depend on the processing

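No region of the 9 loci passed the limma threshold under any of the 11 alternatives to the fit, replicate left out included. Over the genome, where 0 regions passed, 3 were higher and 11 lower in Il2ra mut/mut with no scaling, 142 and 176 with median centring and 1 and 0 with only peaks of a −log10 q of at least 3. A replicate block, fitted although the numbers did not pair the libraries (correlation of same-numbered deviations 0.011), gave 0 calls, and with the block Il10 +3.0 kb had a log2 difference of 0.85 (limma adjusted p 0.656). Of the 32 log2 differences named, 23 kept their sign under every alternative, and 16 of these moved by over 1.5 times with a library left out. Among these 16 were Il10 -9.2 kb (0.42 to 0.96), Il10 +1.7 kb (0.23 to 0.38) and Nt5e +53.1 kb (0.32 to 0.74). Further ranges among the 16 were -0.61 to -0.032 at the Fgl2 promoter, 0.015 to 0.50 at Gzmb +21.7 kb and 0.044 to 0.41 at Lrrc32 -0.3 kb. Lrrc32 +2.7 kb ran from -0.27 to -0.023, Tgfb1 +20.8 kb from 0.051 to 0.58 and Entpd1 +47.4 kb from -0.82 to -0.34. The Itgb8 promoter ran from 0.15 to 0.40 and Nt5e +0.5 kb from 0.27 to 0.60. The other 9, changed sign with a library left out, with ranges of -0.41 to 0.013 at Ebi3 +6.5 kb, -0.29 to 0.051 at Ebi3 +23.9 kb, -0.18 to 0.029 at Tgfb1 -6.2 kb, -0.24 to 0.026 at Tgfb1 +2.3 kb, -0.63 to 0.044 at Lrrc32 +3.8 kb, -0.32 to 0.13 at Nt5e +2.2 kb, -0.27 to 0.057 at Nt5e +30.2 kb, -0.45 to 0.14 at Itgb8 +81.6 kb and -0.15 to 0.17 at Fgl2 -2.2 kb. The last was also 0.0061 with missing values at the lowest of the list.

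Regions called in both WT and neither mutant library went from 2 to 1 with the stricter −log10 q and to 1 with merging at 50% overlap, and lay between 4 and 11 with a library left out. The mutant count went from 1 to 5 with the stricter q, 0 with equal numbers of peaks and 2 with merging at 50% overlap, and lay between 4 and 8. Regions with both mutant libraries above both WT numbered 11 by fold enrichment as deposited, against 19 of 67. With a library left out they numbered 21 to 35 (32 of 60 without WT replicate 2, 35 of 62 without Il2ra mut/mut replicate 1). The WT count of 11 was 5 with the stricter q and 14 to 21 with a library left out (18 of 61 without WT replicate 1, 21 of 61 without Il2ra mut/mut replicate 2). WT-only OCRs went from 8 to 4 at an IDR of 0.01 and to 3 to 8 with a library left out (3 without WT replicate 2, 5 without Il2ra mut/mut replicate 1), and mutant-only OCRs from 5 to 3 with a 10 kb flank, 9 with no IDR step and 4 to 8 with a library left out (8 without WT replicate 2). Common OCRs went from 29 to 43 with no IDR step. In the leave-one-out counts 1 library stands for its genotype, so non-overlap is easier to reach. No genome share is given with a library left out, nor for calls and OCRs under the other settings. Those counts thus cannot be read as a trait of the 9 loci.

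The depth of the libraries is unknown, and 2 libraries per genotype leave few degrees of freedom for the spread. Where no peak was called, reads below the threshold are not listed, so absence is not a measured 0. Regions were assigned to a gene by distance alone.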

Other observations

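Beside Il10, the genes with both mutant libraries above both WT libraries at every one of 6 or more regions included Cass4 (8 regions), Klrg1 (8), M6pr (6), Nol10 (8) and Matn2 (6), all named after their values were seen. Klrg1 encodes an inhibitory receptor of differentiated T and NK cells. Klrg1 and M6pr both lie on chromosome 6 and windows of neighbouring genes can share regions. Among the other inhibitory molecules of the pathway lists, Havcr2 (TIM-3) had both mutant libraries above both WT at 5 of 7 regions and the reverse at 0, and Adora2a, the adenosine receptor, at 4 of 8 and 0. Over the genome these shares were 22.8% and 15.1%. Lag3 had 5 and 3 of 12 regions, and Ctla4 5 and 2 of 18. Itgav, the integrin chain that pairs with Itgb8, had 4 of 7 and 1. Icos, a costimulatory receptor, had 0 of 7 and 1, and Lgals9 0 of 4 and 2. These counts have no test and were chosen after the values were seen.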
